A study of Mus musculus with 19 samples.

Results

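The mouse mitochondrial genome encodes subunits of the respiratory chain and the RNAs of its own ribosome. The deposited table of 25891 genes held 15 rows whose symbol starts with mt-, and all 15 are described here. They are 13 protein coding genes and the 2 ribosomal RNA (rRNA) genes mt-Rnr1 and mt-Rnr2. The annotation also places 22 tRNA genes on this chromosome, which were not analysed here. RNA was sequenced from MII oocytes (ovulated and arrested in metaphase of the second meiotic division) and from 2cell embryos of the mouse, to compare the transcriptomes of 2 maternal genotypes of Cpeb3, the gene of an RNA-binding protein that acts on mRNA tails. The labels give 5 Het and 5 KO libraries at the MII stage, and 5 Het and 4 KO libraries at the 2cell stage. The study calls these genotypes CPEB3+/- and CPEB3-/-. All donors were BL6 females 6 to 10 weeks old that received 5 IU PMSG and 5 IU hCG to induce ovulation. The 2cell embryos came from such females after mating, were cultured in M16 medium as zygotes, and were collected 37 h after hCG. The deletion was driven by Cre from the Zp3 promoter, which is active in growing oocytes, so that somatic cells keep the gene. The study mated these females with wild-type males, so a 2cell embryo carries an intact paternal allele, and its methods pool 5 cells per library. Whether replicates came from separate animals is not given in the sources used here, so p values measure the spread between these libraries, which may be technical.

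Each strand of mitochondrial DNA is transcribed as a long precursor by the nuclear-encoded polymerase POLRMT, and the precursor is cut mostly at the tRNAs that lie between the other genes. The mRNAs and rRNAs that are released then differ in level mainly through their stability, and the mRNAs receive short A tails that complete the stop codon of some genes. Mitochondria and their DNA are inherited from the oocyte, which holds far more of them than a somatic cell. FPKM, the fragments of a gene scaled to its length and to the mapped fragments of the library, was the deposited unit. For the mitochondrial genes this length was that of the transcript, so their levels are compared per length. Whether the length of a spliced nuclear gene counts its introns is not given in the sources used here and was not tested. If it does, FPKM of nuclear genes are too low beside mitochondrial ones, and mitochondrial shares of all FPKM are too high.

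Of the 15 genes, 14 lie on the + strand of chromosome M in GRCm38 and only mt-Nd6 lies on the - strand, as annotated in GENCODE vM21. Neighbours overlap at 4 places: 43 bases of mt-Atp8 and mt-Atp6, 7 of mt-Nd4l and mt-Nd4, 1 of mt-Atp6 and mt-Co3, and, on opposite strands, 14 of mt-Nd5 and mt-Nd6. Fragments over these bases cannot be given to a single gene. The 14 shared bases of the last pair are in capitals in the final bases of both genes below, each 5′ to 3′ on its own strand, because the library kit named in the methods keeps no strand information and reads of mt-Nd6 and of RNA antisense to it could not be told apart.
mt-Nd5: tatactcaaTTAATCTCGAGTAA
mt-Nd6: ttatcgagaTTACTCGAGATTAA
The transcripts also end differently. The last 24 bases are shown for the 3 mRNAs whose annotated sequence stops after the T of an unfinished stop codon, and for mt-Co1 and mt-Nd1, which have a full one. The capitals mark the stop codon or its T.
mt-Cytb: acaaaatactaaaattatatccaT
mt-Co3: tctccatttattgatgaggatctT
mt-Nd4: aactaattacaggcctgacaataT
mt-Co1: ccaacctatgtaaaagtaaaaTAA
mt-Nd1: gcgggagtaccaccatacataTAG
The gene on the - strand also differs in composition: mt-Nd6 held 28.1% G and 5.97% C, whereas mt-Nd5, its overlapping neighbour, held 9.98% G and 27.1% C.

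Before the comparisons, several facts of the libraries are needed. The FPKM of Cpeb3 over the whole gene were higher in the KO-labelled libraries, at 0.162 ± 0.0325 (SD, n = 5) against 0.0755 ± 0.0240 (n = 5) in MII oocytes and at 0.0554 ± 0.0129 (n = 4) against 0.0303 ± 0.0149 (n = 5) in 2cell embryos. The whole-gene level thus ran against the labels, but it includes exons outside a deletion and so checks neither the deletion nor the labels, and the groups are called Het-labelled and KO-labelled below. All 9 oocyte markers had a mean over 1 FPKM in both MII groups, and all 10 markers of the 2cell embryo did so in both 2cell groups. However, 8 oocyte markers also did so in both 2cell groups, and 3 and 4 of the 2cell markers in Het-labelled and KO-labelled MII oocytes. Medians of the summed markers in Het-labelled libraries differed more between the stages, at 1716 and 121 FPKM for oocyte and 39.5 and 661 FPKM for 2cell markers. Their sums did not overlap between genotypes in MII oocytes, where the summed oocyte markers lay between 1428 and 1796 FPKM in Het-labelled and between 1235 and 1407 FPKM in KO-labelled libraries, and the summed 2cell markers between 38.0 and 45.4 and between 46.6 and 62.5 FPKM. Among them, Mos was at 214 and 67.5 FPKM, and Zscan4c, of a family that may share reads, at 0.544 and 3.37 FPKM. The oocyte markers did not move as a set. Mos, H1foo, Gdf9, Bmp15 and Zp2 had lower means in KO-labelled MII oocytes, but Zp1, Zp3, Ooep (260 and 325 FPKM) and Nlrp5 had higher ones. Of the 2cell markers, Zfp352 had a lower mean there, and Tcstv1, the highest of them, moved little (32.7 and 35.1 FPKM). The part of these differences in the results was not tested. Of 12 cumulus and granulosa cell markers 9 were in the table, 0 had a mean over 1 FPKM in any group, and their summed level lay between 0.347 and 0.883 FPKM over all libraries, with Foxl2 at 0 in both MII groups. Estimated depth was between 17.0 M and 23.5 M fragments.

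The table also held 11 near-identical copies of mitochondrial genes in the nuclear genome (pseudogenes of at least 95% identity over at least 200 bases). How reads that map to several places were assigned is not given in the sources used here, so fragments of a gene and of its copy cannot be told apart. Of these, 7 lay side by side on chromosome 1, from Gm28439 (chr1:24611535-24612410) to Gm29216 (chr1:24615706-24616197), and 5 of the 7 were 100% identical to mt-Nd4, mt-Nd4l, mt-Co3, mt-Atp6 or mt-Co2 over the aligned bases. Gm28437, the copy of mt-Co3, was listed at 733 ± 80.5 FPKM (SD, n = 5) in Het-labelled MII libraries, beside 629 ± 52.1 for mt-Co3 itself. Gm10222, the copy of mt-Nd4l, was listed at 46.4 ± 2.75, beside 10.7 ± 5.94 for mt-Nd4l. The copies held a median of 53.8% of the fragments of the mt-Co3 pair in that group and 78.3% of those of the mt-Nd4l pair, but 0.210% for mt-Nd5 and 2.40% for mt-Nd4. For some genes this share differed between genotypes without overlap in 2cell embryos, where it lay between 6.88% and 14.3% in Het-labelled and between 18.0% and 22.2% in KO-labelled libraries for mt-Co1, and between 39.2% and 41.9% and between 33.1% and 37.0% for mt-Atp6. Not every copy moved like its gene: Gm29216, a copy of mt-Co1, had a log2 fold change of 0.60 in 2cell embryos (limma adjusted p = 0.0633), beside -0.59 for mt-Co1. The levels and, where the share differed, the fold changes of mt-Co1, mt-Co2, mt-Co3, mt-Atp6, mt-Nd3 and above all mt-Nd4l are therefore uncertain. By contrast, mt-Nd1, mt-Nd6, mt-Cytb and both rRNAs had no copy past these limits among annotated transcripts. No copy of mt-Atp8 was among the rows. This gene lies between mt-Co2 and mt-Atp6, whose chromosome 1 copies leave a gap from chr1:24614651 to chr1:24614885. An unannotated copy of mt-Atp8 there was not searched for, so its values are uncertain too.

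The mitochondrial transcripts took up a smaller share of all FPKM in the KO-labelled groups. FPKM weigh a fragment of a short gene more than that of a long one. As a share of fragments, from FPKM and the listed length of each gene, the mitochondrial transcripts held far less than of all FPKM. In MII oocytes they held 0.838% ± 0.0286 of fragments in Het-labelled and 0.532% ± 0.134 in KO-labelled libraries. In 2cell embryos they held 3.82% ± 0.576 and 2.24% ± 0.420. The listed lengths of other genes were therefore much longer on average, which may include introns. In Het-labelled MII oocytes the mitochondrial transcripts held 9.13%, 8.89%, 9.41%, 8.75% and 8.98% of all FPKM, a mean of 9.03% ± 0.251 (SD, n = 5). In KO-labelled MII oocytes they held 7.72%, 6.06%, 5.35%, 4.25% and 6.75%, a mean of 6.03% ± 1.32 (n = 5). No KO-labelled library reached the lowest Het-labelled one, and the spread among the KO-labelled libraries was the wider. At the 2cell stage the share was 24%, 26.7%, 21.3%, 23.8% and 26.9% in Het-labelled embryos (24.5% ± 2.33) and 16%, 14.2%, 16.9% and 21.5% in KO-labelled embryos (17.2% ± 3.12, n = 4). Here the groups overlapped, since the highest KO-labelled library, D, lay just above the lowest Het-labelled library, C. The coding genes alone separated the genotypes at both stages, with 6.52% to 8.14% against 3.26% to 5.37% in MII oocytes and 17.8% to 24.2% against 11.0% to 16.3% in 2cell embryos. The share of the rRNAs in all FPKM was 1.71% ± 0.423 against 1.84% ± 0.986 in MII oocytes and 2.84% ± 0.444 against 4.06% ± 0.871 in 2cell embryos. In pooled cells, fewer mitochondria or genome copies and less RNA per genome cannot be told apart, and such a share also moves with the other RNAs. The methods describe a capture of mRNA before amplification. Whether its yield for RNAs with short A tails differed between groups was not tested.

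**Figure D1:**
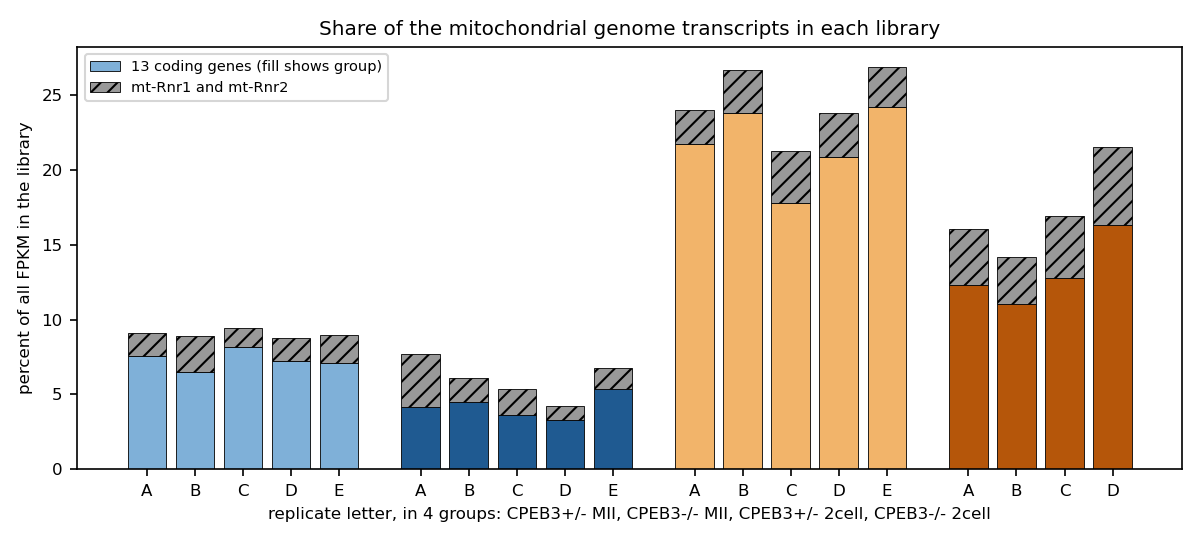
Share of all FPKM held by the 13 coding genes (coloured bar) and the 2 rRNA genes (hatched bar, stacked on it), in percent, in each of the 19 libraries ordered by group and replicate letter. The coding bars of the 5 KO-labelled MII libraries end between 3.26% and 5.37%, all below the Het-labelled ones, while the hatched bars overlap between the MII groups, at 1.27% to 2.37% and 0.989% to 3.54%.

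In MII oocytes, 10 of the 13 coding genes were lower in KO-labelled libraries and 0 of the 15 genes were higher. They were called where limma's adjusted p was under 0.05 and the change over 1.5-fold. The background was 7.33% of 10515 tested genes called lower and 5.51% called higher, together 12.8%. At the 2cell stage 10 coding genes were again called lower and 0 genes higher, against a background of 9.42% lower and 8.67% higher of 14051 genes, together 18.1%. With the replicate letter as a block in the fit, 8 were called lower in MII oocytes and 5 in 2cell embryos. Of all genes, 813 of 10515 and 389 of 14051 were then called in either direction. The 15 genes are not independent of each other, since they share precursors and, in part, reads. The median log2 fold change of the coding genes was -1.05 in MII oocytes and -1.31 in 2cell embryos, beside 0.01 and 0.00 over all tested genes. The FPKM of 10 coding genes did not overlap between genotypes in each stage, with 7.57% of all tested genes lower without overlap in MII oocytes and 9.56% in 2cell embryos. Both rRNAs overlapped at both stages.

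**Figure D2:**
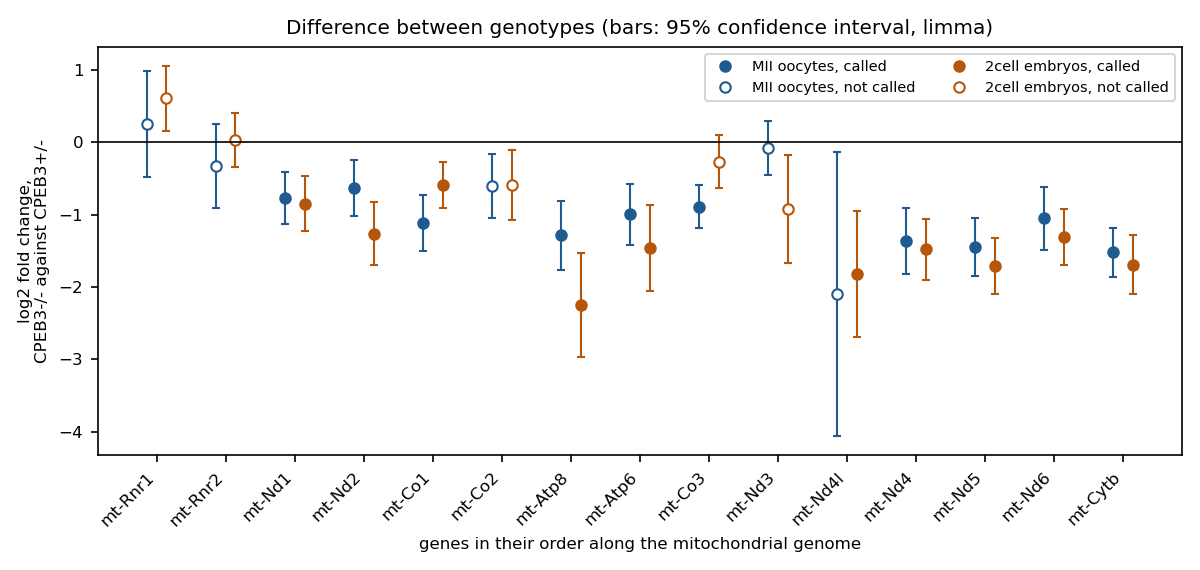
Log2 fold change of the KO-labelled against the Het-labelled libraries for the 15 genes in their order along the genome, in MII oocytes and in 2cell embryos. Points are limma estimates, bars are 95% confidence intervals, and filled points were called. mt-Cytb, at the right end, lay at -1.52 and -1.69, while mt-Rnr1, at the left end, lay at 0.25 and 0.61.

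mt-Cytb (chrM:14145-15288), cytochrome b and the only mitochondrially encoded subunit of complex III, had the highest mean FPKM of the 15 transcripts in the Het-labelled groups of both stages as listed, but came after mt-Atp6 at both once the fragments of the copies were added (1439 and 1604 FPKM in MII oocytes, 8087 and 8153 FPKM in 2cell embryos). Its FPKM in Het-labelled MII oocytes was 1459, 1270, 1681, 1346 and 1441, and in KO-labelled MII oocytes 538, 552, 502, 436 and 685. Every KO-labelled value was thus far below every Het-labelled one, and the log2 fold change was -1.52 ± 0.15 (SE, limma adjusted p = 2.17e-04). At the 2cell stage it was 8394, 9204, 5849, 6937 and 10052 FPKM in Het-labelled libraries and 2651, 2162, 2666 and 2666 in KO-labelled ones. The latter 4 lay close together and well below the former, with a log2 fold change of -1.69 ± 0.18 (adjusted p = 0.00114).

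Complex I takes electrons from NADH into the respiratory chain, and 7 of its subunits are encoded here. Of these, 5 were called lower in MII oocytes and 6 in 2cell embryos. mt-Nd5 (chrM:11742-13565), a subunit of the membrane arm, was among those that differed most. In MII oocytes it was at 201, 162, 191, 187 and 179 FPKM in Het-labelled and at 74.4, 81.3, 60.6, 52.6 and 102 FPKM in KO-labelled libraries (log2 fold change -1.45 ± 0.18, adjusted p = 7.28e-04). The 2cell values were 853, 982, 669, 936 and 932 FPKM in the former and 293, 213, 256 and 341 FPKM in the latter (-1.71 ± 0.17, adjusted p = 0.00110). The groups did not overlap at either stage. mt-Nd4, another membrane subunit, fell in the same way, from 268 to 343 FPKM in Het-labelled to 88.0 to 191 FPKM in KO-labelled MII oocytes (-1.36 ± 0.21, adjusted p = 0.00202), and from 1335 to 2212 FPKM to 533 to 795 FPKM in 2cell embryos (-1.48 ± 0.19, adjusted p = 0.00169).

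mt-Nd1 and mt-Nd2 lie nearest to the rRNA genes. mt-Nd1 was at 594 ± 76.8 FPKM in Het-labelled and 376 ± 63.3 FPKM in KO-labelled MII oocytes (-0.77 ± 0.16, adjusted p = 0.0103), and at 3635 ± 530 and 2082 ± 413 FPKM in 2cell embryos (-0.85 ± 0.17, adjusted p = 0.00875). mt-Nd2 was at 357 ± 18.2 and 254 ± 64.9 FPKM in MII oocytes (-0.64 ± 0.18, adjusted p = 0.0283), and at 1923 ± 338 and 825 ± 177 FPKM in 2cell embryos (-1.26 ± 0.19, adjusted p = 0.00346). The MII call of mt-Nd1 was kept in 8 of 10 other settings and its 2cell call in 7 of 10. The MII call of mt-Nd2 was kept in 5 of 10 other settings, with an estimate of -0.25 (adjusted p = 0.353) after GC correction. It also rested on single libraries, and was lost without Het-labelled replicate A, C or D, or without KO-labelled replicate A, C or D, where the log2 fold change was between -0.65 and -0.51 and the adjusted p between 0.0386 and 0.0697.

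mt-Nd3, another membrane subunit, and mt-Nd4l were the complex I genes that were not called in MII oocytes. The FPKM of mt-Nd3 there was 138, 140, 133, 123 and 112 in Het-labelled libraries and 125.9, 147, 113, 102 and 184 in KO-labelled ones. The groups overlapped throughout, and the log2 fold change was -0.08 with a 95% confidence interval of -0.45 to 0.30, which excludes the estimates for mt-Cytb, mt-Nd5 and mt-Nd4 but overlaps the interval of mt-Nd2 (-1.02 to -0.25). With the FPKM as deposited the estimate was 0.03, and with the fragments of its copy Gm28438 added it was 0.07. In 2cell embryos mt-Nd3 was at 548, 922, 485, 800 and 845 FPKM against 353, 206, 390 and 717 FPKM (-0.92 ± 0.34, adjusted p = 0.0809). This difference missed the threshold, but without KO-labelled replicate D, the highest of its group, it was called (-1.23, adjusted p = 0.0251).

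mt-Nd4l, the least abundant of the 15, was measured poorly. In MII oocytes its FPKM was 13.7, 16.2, 2.85, 14.8 and 5.82 in Het-labelled and 0.219, 7.57, 1.02, 2.15 and 8.89 in KO-labelled libraries. At the estimated depth, the lowest value stood for about 1.47 fragments, so counting error alone was large. The fold change of -2.10 ± 0.89 was not called (adjusted p = 0.113), but with the fragments of Gm10222 added it was -1.29 ± 0.21 and was called (adjusted p = 0.00270). In 2cell embryos it was 60.2, 78.2, 66.6, 80.01 and 64.9 FPKM against 27.5, 15.2, 8.70 and 44.8 FPKM, without overlap (-1.82 ± 0.39, adjusted p = 0.0118).

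mt-Nd6 (chrM:13552-14070), the complex I gene on the - strand, fell like the + strand genes. In MII oocytes it was at 78.9, 89.0, 66.2, 73.1 and 73.2 FPKM in Het-labelled and at 52.2, 41.4, 38.2, 22.2 and 50.2 FPKM in KO-labelled libraries (-1.05 ± 0.20, adjusted p = 0.00597). At the 2cell stage it was at 233, 322, 258, 325 and 317 FPKM and at 112, 96.6, 112 and 167 FPKM (-1.31 ± 0.17, adjusted p = 0.00184). The median of the 12 coding genes of the + strand was -1.06 and -1.36. As a share of all mitochondrial coding FPKM, mt-Nd6 held 1.22% ± 0.227 in Het-labelled and 1.19% ± 0.236 in KO-labelled MII oocytes (exact permutation p = 0.770, adjusted p = 0.798 over the 28 share tests). At the 2cell stage it held 0.912% ± 0.143 and 0.762% ± 0.0513 (exact permutation p = 0.0794, adjusted p = 0.101), but with the fragments of the copies in the total the difference was -0.144 percentage points (exact permutation p = 0.0317). Between stages its share fell, in Het-labelled libraries with overlap (exact permutation p = 0.0238, adjusted p = 0.0370) and in KO-labelled libraries without overlap (exact permutation p = 0.0159, adjusted p = 0.0261).

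The complex IV genes encode the catalytic core of cytochrome c oxidase, which passes electrons to oxygen, and 2 of 3 were called lower at the MII stage and 1 of 3 at the 2cell stage. None of the 3 was called in the interaction of stage and genotype in the main fit. There, mt-Co1 and mt-Co3 were called after scaling to the sum of FPKM or GC correction, and mt-Co3 with a filter of 1 FPKM. In MII oocytes mt-Co3 was at 619, 562, 704, 613 and 649 FPKM in Het-labelled and at 431, 341, 345, 293 and 430 FPKM in KO-labelled libraries, without overlap (-0.89 ± 0.14, adjusted p = 0.00203). At the 2cell stage it was at 2827, 3233, 2126, 2650 and 3355 FPKM and at 2406, 2065, 2432 and 2703 FPKM. These groups overlapped, and the log2 fold change was -0.27 with a 95% confidence interval of -0.64 to 0.10 (adjusted p = 0.285). Scaling to the sum of FPKM turned its sign (0.07).

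mt-Co1 went from 738 ± 97.6 to 368 ± 68.0 FPKM in MII oocytes (-1.12 ± 0.17, adjusted p = 0.00222) and from 3112 ± 432 to 2112 ± 225 FPKM in 2cell embryos (-0.59 ± 0.14, adjusted p = 0.0187). The 2cell call stood just past the 1.5-fold limit and was kept in 3 of 10 other settings, with an estimate of -0.23 (adjusted p = 0.287) after GC correction. It was also lost without Het-labelled replicate B or E or KO-labelled replicate B or C (-0.58 to -0.54, adjusted p 0.0451 to 0.0516). mt-Co2 was at 709 ± 77.6 and 515 ± 136 FPKM in MII oocytes (-0.60 ± 0.20, adjusted p = 0.0530) and at 3485 ± 658 and 2414 ± 727 FPKM in 2cell embryos (-0.59 ± 0.22, adjusted p = 0.0818). It was not called at either stage. In MII oocytes mt-Co2 was called without KO-labelled replicate E (-0.72, adjusted p = 0.0295) or with the copies added (-0.62, adjusted p = 0.0300). In 2cell embryos it was called without Het-labelled replicate C (-0.70, adjusted p = 0.0462) or KO-labelled replicate D (-0.78, adjusted p = 0.0268). Its 2cell result was the same in 9 of 10 other settings, with a lowest limma adjusted p of 0.0495 over the 10.

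mt-Atp8 and mt-Atp6 encode subunits of complex V, the ATP synthase, in overlapping frames of a shared mRNA. mt-Atp8 gave the lowest estimate of the 15 in 2cell embryos, but reads lost to an unannotated copy were not checked. There it was at 633, 847, 427, 737 and 930 FPKM in Het-labelled and at 133, 90.6, 152 and 266 FPKM in KO-labelled libraries (-2.26 ± 0.32, adjusted p = 0.00261). In MII oocytes it was at 140, 103, 129, 109 and 95.9 FPKM and at 35.0, 59.5, 43.8, 51.4 and 67.7 FPKM (-1.29 ± 0.22, adjusted p = 0.00344). Neither stage had overlap between the genotypes. mt-Atp6 went from 985 ± 66.0 to 546 ± 152 FPKM in MII oocytes (-0.997 ± 0.19, adjusted p = 0.00664) and from 4820 ± 1148 to 1843 ± 692 FPKM in 2cell embryos (-1.46 ± 0.26, adjusted p = 0.00645).

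The rRNAs of the mitochondrial ribosome were not called at either stage in the main fit. mt-Rnr1 (chrM:70-1024), the RNA of the small subunit, was at 282, 511, 214, 276 and 363 FPKM in Het-labelled and at 994, 374, 403, 233 and 302 FPKM in KO-labelled MII oocytes (0.25 ± 0.33, adjusted p = 0.612). KO-labelled replicate A lay far above all other MII libraries, and without it the estimate was -0.05. In 2cell embryos mt-Rnr1 was at 665, 909, 1132, 895 and 881 FPKM and at 1313, 950, 1530 and 1929 FPKM (0.61 ± 0.20, adjusted p = 0.0590). Here 3 of 4 KO-labelled libraries lay above every Het-labelled one, and without the fourth, replicate B, the gene was called higher (0.78, adjusted p = 0.0253). Its 2cell result was the same in 7 of 10 other settings. With a filter of 1 FPKM, scaling to the sum of FPKM or GC correction it was called higher. mt-Rnr2 (chrM:1094-2675), the RNA of the large subunit, was at 1058, 1540, 885, 992 and 1231 FPKM and at 1895, 955, 1006, 531 and 831 FPKM in MII oocytes (-0.33, 95% confidence interval -0.91 to 0.25, adjusted p = 0.382). In 2cell embryos it was at 2483, 3666, 3537, 3448 and 3395 FPKM and at 3296, 2636, 3570 and 4484 FPKM (0.03, 95% confidence interval -0.34 to 0.40, adjusted p = 0.923). The MII interval of mt-Rnr2 includes the changes of mt-Nd1, mt-Nd2 and mt-Co3, which were called lower there. The 2cell intervals of both rRNAs exclude the changes of every coding gene that was called at that stage.

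**Figure D3:**
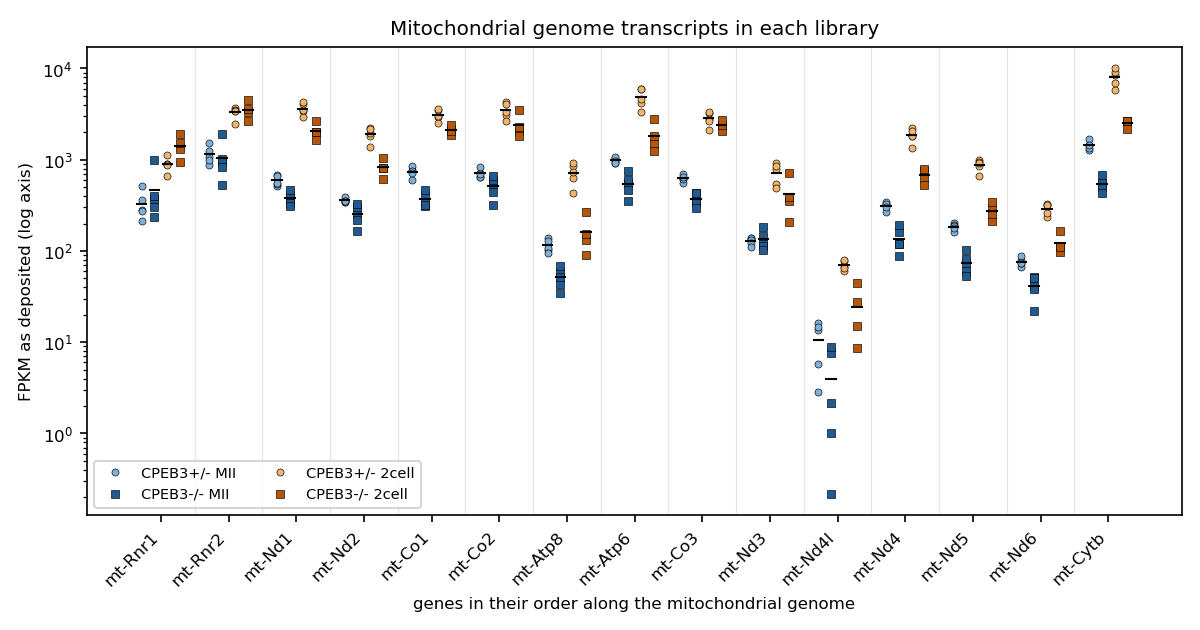
FPKM (log axis) of the 15 genes in each library, in their order along the mitochondrial genome, for the 4 groups. Symbols are libraries and black dashes are group means. Both rRNAs overlap between genotypes, while mt-Cytb in 2cell embryos lies between 5849 and 10052 FPKM in Het-labelled and between 2162 and 2666 FPKM in KO-labelled libraries.

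The make-up of the mitochondrial transcripts was also compared, as a ratio within a library that needs no scaling between libraries. Such a ratio still depends on how well each kind of RNA was captured, which was not tested. The rRNAs held 9.27%, 10.8%, 16.2%, 12.4% and 9.98% of the mitochondrial FPKM in Het-labelled 2cell embryos, a mean of 11.7% ± 2.77 (n = 5). In KO-labelled 2cell embryos they held 23.3%, 22.2%, 24.5% and 24.2%, a mean of 23.5% ± 1.03 (n = 4). The groups did not overlap (exact permutation p = 0.0159, the smallest that 5 against 4 libraries can give, adjusted p = 0.0261). In MII oocytes the share was 19.03% ± 4.97 against 29.6% ± 10.0, with overlap and replicate A at 45.8% (exact permutation p = 0.0635, adjusted p = 0.0847). It passed without Het-labelled replicate B (exact permutation p = 0.0317) or without KO-labelled replicate E (exact permutation p = 0.0476), at differences of 12.5 and 12.8 percentage points. Without KO-labelled replicate A the difference was 6.48 points (exact permutation p = 0.127), beside 10.5 with it. mt-Rnr2 also lost ground to mt-Rnr1, with a ratio of 3.58 ± 0.418 in Het-labelled and 2.40 ± 0.323 in KO-labelled MII oocytes. The 2cell ratios were 3.72 ± 0.350 and 2.49 ± 0.211. The ranges of this ratio did not overlap at either stage, from 3.01 to 4.14 against 1.91 to 2.75 in MII oocytes and from 3.12 to 4.03 against 2.32 to 2.77 in 2cell embryos.

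Among the coding genes, the balance of the complexes also shifted. Complex III, that is mt-Cytb, held 22.9% ± 0.814 of mitochondrial coding FPKM in Het-labelled and 16.03% ± 0.965 in KO-labelled MII oocytes (exact permutation p = 0.00794, the smallest that 5 against 5 can give, adjusted p = 0.0261). In 2cell embryos it held 24.9% ± 1.81 and 16.2% ± 1.97 (exact permutation p = 0.0159, adjusted p = 0.0261). The groups did not overlap at either stage. Complex IV moved the other way, from 33.0% ± 0.997 to 36.8% ± 1.004 in MII oocytes (exact permutation p = 0.00794, adjusted p = 0.0261) and from 29.2% ± 0.746 to 43.8% ± 1.37 in 2cell embryos (exact permutation p = 0.0159, adjusted p = 0.0261). Complex V fell in share in 2cell embryos, from 16.9% ± 1.15 to 12.3% ± 2.22 (exact permutation p = 0.0159, adjusted p = 0.0261), and differed by less than the spread in MII oocytes, at 17.5% ± 0.642 and 17.4% ± 0.982 (exact permutation p = 0.754, adjusted p = 0.798). With the copies added, complex V was at 20.7% ± 0.824 and 19.3% ± 1.58 in MII oocytes, with overlap. Complex I went from 26.6% ± 1.19 to 29.8% ± 0.842 in MII oocytes (exact permutation p = 0.00794, adjusted p = 0.0261) and was at 29.0% ± 1.28 and 27.7% ± 0.921 in 2cell embryos (exact permutation p = 0.159, adjusted p = 0.193). The shares of a whole must sum to it, so these tests are not independent, and the values of complexes IV and V leave out the fragments listed under nuclear copies. With the mean of the log2 values of the genes in place of their sum, the MII differences of complex I (0.00188, exact permutation p = 0.984) and complex IV (0.197, exact permutation p = 0.127) were no longer past the threshold. With the copies added, the 2cell difference of complex I was -2.20 percentage points (exact permutation p = 0.0159), and the complex IV share went from 40.6% ± 1.01 to 45.1% ± 2.35 in MII oocytes and from 36.4% ± 1.09 to 53.3% ± 1.68 in 2cell embryos.

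**Figure D4:**
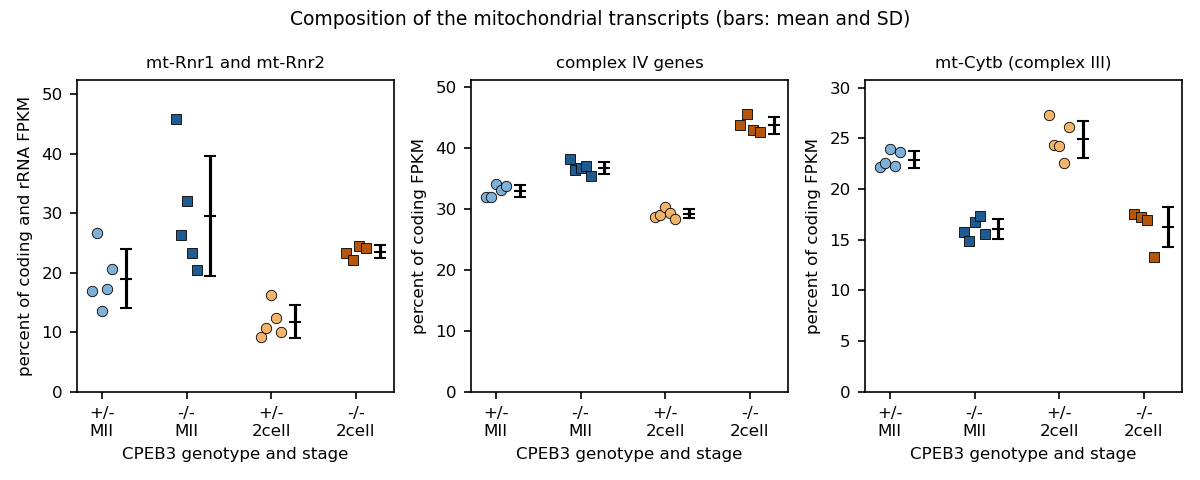
Share of mt-Rnr1 and mt-Rnr2 in mitochondrial coding and rRNA FPKM (left), and shares of the complex IV genes (middle) and of mt-Cytb (right) in mitochondrial coding FPKM, in percent for each library. Bars are the mean and SD of a group. The complex IV share lies between 28.4% and 30.4% in Het-labelled and between 42.6% and 45.7% in KO-labelled 2cell embryos.

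As a single pair, chosen from these shares and so no further support for them, mt-Cytb stood at 2.28 ± 0.0853 times mt-Co3 in Het-labelled and 1.48 ± 0.146 times in KO-labelled MII oocytes. In 2cell embryos it stood at 2.84 ± 0.157 times and 1.058 ± 0.0537 times. With the fragments of Gm28437 added to mt-Co3 the ratios were 1.06 ± 0.0245 and 0.691 ± 0.0862 in MII oocytes and 1.34 ± 0.0540 and 0.4996 ± 0.0201 in 2cell embryos. Across the 13 coding genes, the log2 fold change tended to be lower toward the far end of the genome. Between start position and change, Spearman rho was -0.59 in MII oocytes and -0.49 in 2cell embryos, and Pearson r was -0.42 and -0.40. These genes come from the same libraries and precursors, so this is a description only.

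The 15 transcripts held 31.9% to 41.1% GC. Across the 13 coding genes, which share libraries and precursors, the correlation of GC content with the log2 fold change was negative in MII oocytes (Pearson r -0.43, Spearman rho -0.33) and positive in 2cell embryos (0.34 and 0.22). Nuclear genes with a GC content no higher than that, without the copies, had a median log2 fold change of -0.27 in MII oocytes and -0.39 in 2cell embryos, and 15.7% and 24.1% of them were called lower. After removal of the loess trend on GC content from each library, 7 genes were called lower in MII oocytes, without mt-Nd1, mt-Nd2 and mt-Nd6, and 8 in 2cell embryos, without mt-Nd1 and mt-Co1. The background was then 1196 of 10443 and 1832 of 13933 genes called in either direction. This correction moved the coding median to -0.62 in the MII comparison and to -0.73 in the 2cell comparison. mt-Rnr1 was then called higher in 2cell embryos (1.14, adjusted p = 0.0158), and mt-Cytb still fell at both stages (-1.25, adjusted p = 2.52e-04, and -1.29, adjusted p = 0.00224). The part of GC content in the difference was not tested further. Scaling each library to its sum of FPKM moved the median of all genes by 0.15 in MII oocytes and 0.26 in 2cell embryos, and the share of higher genes among all calls from 42.9% to 69.9% and from 47.9% to 80.9%. On that scale 9 members were called lower in MII oocytes, and in 2cell embryos 8 lower and mt-Rnr1 higher. Of all genes, 1589 of 10515 and 2996 of 14051 were called in either direction on that scale.

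Between the stages all 15 genes rose. In Het-labelled libraries 15 of 15 were called higher in 2cell embryos than in MII oocytes, against a background of 40.6% of 12684 genes called higher and 69.0% called in either direction. In KO-labelled libraries it was also 15 of 15, with 39.7% of 13458 genes higher and 66.8% called. The median log2 fold change of the coding genes was 2.42 and 2.28, beside 0.23 and 0.24 over all tested genes. mt-Cytb rose by 2.48 ± 0.17 (adjusted p = 1.24e-07) and 2.29 ± 0.15 (adjusted p = 3.37e-07), and mt-Co3 by 2.17 ± 0.15 (adjusted p = 1.15e-07) and 2.77 ± 0.15 (adjusted p = 7.27e-08). The rRNAs rose less in Het-labelled libraries, by 1.497 ± 0.19 for mt-Rnr1 (adjusted p = 2.18e-05) and 1.56 ± 0.14 for mt-Rnr2 (adjusted p = 1.33e-06). In KO-labelled libraries they rose by 1.83 ± 0.37 (adjusted p = 0.00112) and 1.89 ± 0.30 (adjusted p = 2.38e-04). FPKM is relative to the library, so a rise of these RNAs and a loss of others cannot be told apart. How far the capture of mRNA during library making entered these differences was not tested.

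All 15 genes were above every MII library in Het-labelled 2cell embryos, where 37.7% of all tested genes were higher without overlap. In KO-labelled libraries 13 of 15 were, with a background of 37.1%, and mt-Rnr1 and mt-Nd4l overlapped. The order of the levels as listed also differed between stages. In Het-labelled MII oocytes mt-Cytb (1439 ± 155 FPKM) was followed by mt-Rnr2 (1141 ± 256) and mt-Atp6 (985 ± 66.0), and the ranges of neighbours in this order overlapped. In Het-labelled 2cell embryos mt-Cytb (8087 ± 1698 FPKM) was followed by mt-Atp6 (4820 ± 1148) and mt-Nd1 (3635 ± 530). The ranges of neighbours overlapped here too, and mt-Rnr2 (3306 ± 471) came after mt-Co2, at the fifth place. In the KO-labelled groups mt-Rnr2 had the highest mean as listed, at 1043 ± 510 FPKM in MII oocytes and 3497 ± 766 FPKM in 2cell embryos. With the copies added it came after mt-Co3 (5081 ± 534 FPKM) and mt-Co2 (3840 ± 1136 FPKM) in 2cell embryos. As a share of mitochondrial FPKM, the rRNAs fell from 19.03% to 11.7% between stages in Het-labelled libraries (exact permutation p = 0.0159, adjusted p = 0.0261), whereas in KO-labelled libraries they were at 29.6% and 23.5% with overlap (exact permutation p = 0.302, adjusted p = 0.352). Without KO-labelled MII replicate A the latter difference was -1.97 percentage points, beside -6.02 with it.

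Whether the genotype difference itself changed from MII oocytes to 2cell embryos was tested as an interaction, called at an adjusted limma p under 0.05. Here 0 of 15 genes were called, against a background of 8.30% of 15786 genes. At an unadjusted limma p under 0.05 there were 5 of 15, namely mt-Nd2, mt-Co1, mt-Atp8, mt-Co3 and mt-Nd3, beside 3648 of all 15786 genes. The lowest adjusted p was that of mt-Co3 (0.60 ± 0.21, adjusted p = 0.0811), with a 95% confidence interval of the difference of 0.17 to 1.04. For mt-Cytb the interaction was -0.19, with a 95% confidence interval of -0.67 to 0.30. The intervals thus include differences between the stages of this size. Without KO-labelled 2cell replicate D, mt-Atp8 (-1.28, adjusted p = 0.0406) and mt-Nd3 (-1.19, adjusted p = 0.0357) passed, beside 1149 of 16357 genes. After scaling to the sum of FPKM or GC correction, mt-Co1 and mt-Co3 passed.

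Nuclear genes that act on the mitochondrial genome were read for comparison. Of 10 genes of mitochondrial transcription, 9 were tested in MII oocytes, with 3 lower and 0 higher, beside 7.33% of all genes lower. All 10 were tested at the 2cell stage, with 2 lower and 0 higher, beside 9.42% of all genes lower. In MII oocytes Mterf1a, which encodes a protein that binds mitochondrial DNA next to the rRNA genes, fell from 4.43 ± 0.470 to 1.89 ± 0.157 FPKM (-1.29 ± 0.12, adjusted p = 2.08e-04). Its paralog Mterf1b, which may share reads with it, fell by 1.27 on the log2 scale (adjusted p = 0.0200), and Mterf3 of the same family fell from 0.937 ± 0.249 to 0.333 ± 0.131 FPKM (adjusted p = 0.0107). In 2cell embryos Mterf3 (-0.74 ± 0.20, adjusted p = 0.0293) and Tefm, an elongation factor of the mitochondrial polymerase (-1.22 ± 0.26, adjusted p = 0.0109), fell. The study lists MTERF1 and MTERF3 among genes chosen on these same samples, so they are not independent evidence. Polrmt itself passed the filter on low values only in 2cell embryos, at 0.160 ± 0.0703 and 0.0898 ± 0.0233 FPKM (adjusted p = 0.192), and Tfam, which packs mitochondrial DNA and starts transcription, was not called at either stage (0.28, adjusted p = 0.0990, and 0.03, adjusted p = 0.945).

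Of 19 genes of mitochondrial RNA processing and decay, 18 were tested in MII oocytes, with 1 higher and 1 lower, and 17 in 2cell embryos, with 1 higher and 0 lower. These shares were no higher than the background of 12.8% and 18.1% of all genes called in either direction. The higher one was Elac2 at both stages, which cuts tRNAs out of their precursors (0.70 ± 0.14, adjusted p = 0.00951, and 0.72 ± 0.21, adjusted p = 0.0416). The lower one was Fastkd2, an RNA-binding protein of mitochondria (-0.61 ± 0.17, adjusted p = 0.0281). Of 11 genes of mtDNA replication, 6 were tested in MII oocytes and 0 were called. In 2cell embryos 2 of 10 were called, near the background of 18.1%. Polg, the catalytic subunit of the mtDNA polymerase, rose from 0.125 ± 0.0418 to 0.480 ± 0.164 FPKM (1.31 ± 0.23, adjusted p = 0.00551), and Polg2, its accessory subunit, fell from 0.578 ± 0.0997 to 0.306 ± 0.128 FPKM (-0.83 ± 0.26, adjusted p = 0.0465). The median log2 fold change of the 3 lists was between -0.16 and -0.03 in MII oocytes and between -0.42 and -0.01 in 2cell embryos, far smaller than that of the mitochondrial coding genes. Several of these levels were under 1 FPKM. The fragments behind them were not computed, and they depend on the length used for each gene.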

How the data were processed

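RNA of 19 libraries was made into cDNA with the SMART-seq v4 kit and sequenced as 150 bp read pairs. Per the submitters' processing notes, reads were trimmed with Trim Galore 0.4.1 and aligned to GRCm38 with HISAT2 2.0.5, and the study's methods name SeqMonk for quantification. The values deposited by the authors are FPKM in 1 table of all genes, although the table is named as raw counts. They are not whole, and 0 of its library columns were left unused. Depth was estimated from the steps between low FPKM values. Only 37.8% to 45.0% of low values were whole within 0.05 fragments (chance gives 10%), so that depth is rough and no count test was used.

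Members were all rows whose symbol starts with mt-. Members and gene lists were chosen with earlier results of these data known. Comparisons used limma 3.58.1 in R 4.3.3 on log2(FPKM + 0.1), with a variance trend, after scaling by trimmed means (30% of log ratios and 5% of levels trimmed), over all genes that reached 0.1 FPKM in 5 libraries (MII genotypes, Het-labelled stages) or in 4 (2cell genotypes, KO-labelled stages, interaction). Fold changes are on this scale and understate those of low genes. A gene was called at a Benjamini-Hochberg adjusted p under 0.05 and over 1.5-fold, and an interaction at the adjusted p alone. Shares were computed from the deposited FPKM and tested two-sided with exact permutations of the libraries, adjusted over 28 tests. The total share of mitochondrial transcripts was among these 28 tests. It gave exact permutation p = 0.00794 between the MII genotypes and 0.0317 between the 2cell genotypes. Between stages it gave exact permutation p = 0.00794 in Het-labelled and 0.0159 in KO-labelled libraries. The difference between the 2cell genotypes was no longer past 0.05 in 7 of 9 tests that left out 1 library. Copies were found with BLAST 2.17.0 on GENCODE vM21 transcripts (at least 95% identity over 200 bases), from which the printed sequences also come. Nuclear genes were named where called between genotypes, at most 8 by adjusted p, and Polrmt and Tfam were added after their values were seen. Genotype and stage comparisons share libraries, so their values are given side by side without a correlation. Shares and figures were made in Python 3.11.15 with scipy 1.17.1, pandas 2.3.3, matplotlib 3.10.9 and numpy 2.4.6. Scripts were tested on simulated data. Alternatives covered scaling, pseudocount (1), filter (none or 1 FPKM), a joint fit, the replicate block, a GC correction (loess span 0.5), unadjusted p values, other definitions of the shares, and leaving out each library.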

Additional observations from a re-analysis of the deposited data

Results flagged for a closer look

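Of 88 groups of values tested, 4 held a library whose gap to its nearest neighbour was over Dixon's critical value, where chance gives about 1 in 20 groups. mt-Rnr1 was at 994 FPKM in KO-labelled MII replicate A, beside 233 to 403 in the other 4 libraries of that group. mt-Rnr2 was at 2483 FPKM in Het-labelled 2cell replicate A, beside 3395 to 3666. mt-Cytb was at 2162 FPKM in KO-labelled 2cell replicate B, beside 2651 to 2666, which lay very close together. The share of complex III in mitochondrial coding FPKM was 13.3% in KO-labelled 2cell replicate D, beside 16.9% to 17.5%. The cause of these gaps was not tested.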

How the results depend on the processing

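FPKM carry no counts, so the depth behind each value is known only roughly, and mt-Nd4l rests on few fragments. The count of coding genes called lower lay between 7 and 12 in MII oocytes over all settings, and between 8 and 12 in 2cell embryos except under the replicate block. All 15 genes were called higher in 2cell embryos in both genotypes under every setting run, leaving out each library included.

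The replicate letters did not pair the libraries: deviations of libraries of the same letter correlated at -0.18 to 0.12, and not every library correlated best with its own letter. With the replicate block 8 genes were called in MII oocytes (813 of all genes) and 5 in 2cell embryos (389 of all genes). The 2cell calls of mt-Nd1, mt-Nd2, mt-Co1, mt-Atp6 and mt-Nd4l were the ones lost. With the block, the median log2 fold change of the coding genes in 2cell embryos was -1.28, beside -1.31 without it. The block gave 0 calls of 15 in the interaction, where mt-Co2 changed sign (0.0423).

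For the interaction, 2 genes were called after scaling to the sum of FPKM (mt-Co1 and mt-Co3), 1 with a filter of 1 FPKM (mt-Co3), 2 after GC correction (mt-Co1 and mt-Co3) and 5 at an unadjusted p. Over all genes these settings called 1253 of 15786, 796 of 6845, 1283 of 15652 and 3648 of 15786. Estimates near 0 changed sign. In the MII comparison these were mt-Rnr2 with GC correction (0.0676) and mt-Nd3 as deposited (0.0285), scaled to the sum (0.107), with GC correction (0.407) and with the copies added (0.0741). In the 2cell comparison they were mt-Rnr2 with no filter (-0.00767) and mt-Co3 scaled to the sum (0.0662) and with GC correction (0.139). In the interaction, scaling to the sum and GC correction turned mt-Nd1 (0.0710 and 0.0960), mt-Co2 (0.162 and 0.170) and mt-Nd4 (0.0316 and 0.0877), a filter of 1 FPKM turned mt-Co2 (0.0572), and a pseudocount of 1 and added copies turned mt-Nd4l (-0.263 and -0.496).

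Adding the copies, an alternative chosen after seeing the data, moved the mt-Nd6 share difference in 2cell embryos past the threshold (-0.144 percentage points), likewise that of complex I (-2.20), and turned complex V between stages in Het-labelled libraries (0.0708). Relative to the median + strand gene, the mt-Nd6 difference was -0.0282 in 2cell embryos, past the threshold, and -0.0402 between stages in KO-labelled libraries, no longer past it. With the mean of log2 values in place of sums, complex I in MII oocytes (0.00188), between stages in Het-labelled (0.0639) and KO-labelled libraries (-0.0281), complex III between stages in Het-labelled libraries (0.0883) and complex IV in MII oocytes (0.197) were no longer past it, and complex V between stages in Het-labelled libraries changed sign (0.0467). The cause was not tested.

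Leaving out each library in turn gave ranges of -8.81 to -6.36 percentage points for the mitochondrial share in 2cell embryos, 6.48 to 12.8 for the rRNA share in MII oocytes, -8.31 to -1.97 for that between stages in KO-labelled libraries, -0.122 to 0.0511 for the mt-Nd6 share in MII oocytes, 1.41 to 2.59 and -0.234 to 1.16 for complex III between stages in Het-labelled and KO-labelled libraries, and -0.522 to 0.156 for complex V in MII oocytes. Members called in the interaction ranged from 0 to 2. Single genes that changed sign ranged from -0.0540 to 0.433 (mt-Rnr1, MII), -0.208 to 0.00240 (mt-Nd3, MII), -0.0994 to 0.144 (mt-Rnr2, 2cell) and, in the interaction, -0.211 to 0.106 (mt-Co2), -0.453 to 0.770 (mt-Nd4l) and -0.270 to 0.00928 (mt-Nd4).

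Over all genes, the 1350 MII calls became 482 with a pseudocount of 1, 775 with a filter of 1 FPKM and 3897 at an unadjusted p, and the 2541 2cell calls became 1165, 1497 and 4804. Higher genes made up 57.1% of MII calls as deposited and 31.7% with a pseudocount of 1. Between stages, scaling to the sum moved the median of all genes to -0.41 in Het-labelled and -0.25 in KO-labelled libraries, and the share of higher calls from 58.8% to 41.2% and from 59.5% to 44.8%. Calls fell from 8757 to 5107 (pseudocount 1) and 4128 (filter of 1 FPKM) in Het-labelled libraries and from 8985 to 5258 and 4378 in KO-labelled ones. Interaction calls went from 1311 to 796 (filter), 871 (replicate block) and 3648 (unadjusted p). The rRNA share with tRNAs in the denominator was not run because the table held 0 tRNA rows.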

Other observations

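Between stages the shares of complexes IV and I moved in opposite directions in the 2 genotypes, in comparisons that share these libraries with those between genotypes. The complex IV genes held 33.0% ± 0.997 of mitochondrial coding FPKM in Het-labelled MII oocytes and 29.2% ± 0.746 in 2cell embryos (exact permutation p = 0.00794, adjusted p = 0.0261), and 36.8% ± 1.004 and 43.8% ± 1.37 in KO-labelled libraries (exact permutation p = 0.0159, adjusted p = 0.0261). Complex I rose from 26.6% to 29.0% in Het-labelled libraries (exact permutation p = 0.0159, adjusted p = 0.0261) and fell from 29.8% to 27.7% in KO-labelled ones (exact permutation p = 0.0159, adjusted p = 0.0261). With the mean of log2 values, neither stage difference of complex I was past the threshold (0.0639, exact permutation p = 0.333, and -0.0281, exact permutation p = 0.698). Complex V was at 17.5% and 16.9% in Het-labelled libraries (exact permutation p = 0.357) and fell from 17.4% to 12.3% in KO-labelled ones (exact permutation p = 0.0159, adjusted p = 0.0261). With the copies added, the Het-labelled difference of complex V was 0.0708 percentage points in place of -0.603. Complex III was at 22.9% and 24.9% in Het-labelled libraries (exact permutation p = 0.0397, adjusted p = 0.0556) and at 16.03% and 16.2% in KO-labelled ones (exact permutation p = 0.873). The difference between these differences was not tested.

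mt-Nd5, far from the rRNA genes, stood at 0.312 ± 0.0224 times mt-Nd1, near to them, in Het-labelled MII oocytes and at 0.195 ± 0.0195 times in KO-labelled ones, and at 0.241 ± 0.0185 and 0.133 ± 0.00909 times in 2cell embryos. mt-Atp8 stood at 0.194 ± 0.0121 and 0.137 ± 0.0252 times mt-Nd1 in MII oocytes, and at 0.194 ± 0.0294 and 0.0741 ± 0.0195 times in 2cell embryos. The ranges of both ratios did not overlap between genotypes at either stage. mt-Nd6 moved the other way against mt-Nd5, its neighbour on the opposite strand, at 0.418 ± 0.0777 and 0.551 ± 0.113 times in MII oocytes and at 0.335 ± 0.0405 and 0.440 ± 0.0441 times in 2cell embryos, with overlap.

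Of the nuclear genes of mitochondrial transcription, 10 were tested between stages in Het-labelled libraries, of which 2 rose and 4 fell from MII oocytes to 2cell embryos. In KO-labelled libraries 9 were tested, of which 2 rose and 5 fell. These shares are to be read against the 69.0% and 66.8% of all genes called in either direction between the stages.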
